A study of Mus musculus with 41 samples.

Results

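The genes described here encode the nuclear subunits of the mitochondrial respiratory chain and of ATP synthase, together the machinery of oxidative phosphorylation. They were chosen by symbol alone: names that begin with Nduf followed by a, b, c, s or v and a digit, the Sdha to Sdhd genes, names that begin with Uqcr, names that begin with Cox4 to Cox8, and names that begin with Atp5. The rule found 84 of the 32531 genes in the count tables, of which 37 belong to complex I (NADH dehydrogenase), 4 to complex II (succinate dehydrogenase), 8 to complex III (the cytochrome bc1 complex), 18 to complex IV (cytochrome c oxidase) and 17 to complex V (ATP synthase). Electrons from NADH and succinate pass through complexes I and II to ubiquinone, then through complex III and cytochrome c to complex IV, which reduces oxygen. Complexes I, III and IV pump protons, and complex V uses the returning protons to make ATP, on which firing neurons depend to restore their ion gradients. A further set of subunits is encoded by mitochondrial DNA, and these genes are absent from the tables. The prefix rule also takes in a few genes whose products are not structural subunits of the complex they are listed under, among them Atp5sl, now named Dmac2, a complex I assembly factor, and Ndufa4, which is now placed in complex IV.

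The RNA came from the dorsal striatum of adult Drd1-TRAP mice of the CP73 line, on an FVB/N-Swiss Webster background crossed for at least 9 generations to C57BL/6. All animals carried the Drd1-EGFP/Rpl10a transgene, in which the Drd1 regulatory region drives a ribosomal protein tagged with green fluorescent protein, so that antibodies against the tag pull down polysomes from D1 medium spiny neurons, the striatal output neurons that express the D1 dopamine receptor. The mice had long access to intravenous self-administration of saline or cocaine, and the labels divide the cocaine animals into escalating and nonescalating groups. Purified RNA was sequenced 24 h after self-administration in 5 saline, 9 nonescalating and 5 escalating libraries, and approximately 1 month after it in 5 saline, 11 nonescalating and 4 escalating libraries. A further 2 libraries, which carry no time label, are unpurified input RNA of the saline group. Replicate numbers repeat among the nonescalating libraries, as a first set of 6 at each time and a second set of 3 at 24 h and 5 at 1 month. Whether libraries of the same number in both sets share animals is not stated. They were counted as separate libraries, and results are also given with each set alone. In the labels, the word extended, which qualifies self-administration elsewhere, is missing for the inputs, the escalating group at 1 month and the second nonescalating set at 1 month. Whether each library is 1 mouse is not stated, so p-values measure the spread between these libraries, which may in part be technical.

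The libraries held 5394332 to 23925655 counts in genes, with a median of 11340272. Replicate 5 of the saline 24 h group stood apart, with the fewest counts and 11856 genes detected, against 13360 to 18057 in the other purified libraries. Of its reads, 42.3% lay outside annotated genes. This share was at most 30.75% in the other purified libraries, and 40.2% in input replicate 2. Purification changed the markers of cell types: 4 of 7 D1 neuron genes were higher in saline purified than in input RNA (edgeR adjusted p under 0.05), and 5 of 6 D2 neuron, 5 of 10 astrocyte and 8 of 10 oligodendrocyte genes were lower. Endothelial genes went the other way in some libraries. Their summed level was 47.2 and 51.5 CPM (counts per 1e6 counts of a library) in the inputs, 29.3 to 1959 in the saline 24 h libraries and 56.2 to 1009 in the saline 1 month libraries. None of the 8 endothelial genes was at 0 in every library of a saline group, and 0 of them passed the test.

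By summed level, complex V took the largest share of the counts, and within it a single gene, Atp5b, made up 56.3% over the 39 purified libraries. Atp5b encodes the catalytic beta subunit of ATP synthase. In the saline 24 h group the summed CPM was 1590 ± 566 (SD, n = 5) for complex I, 551 ± 170 for complex II, 470 ± 213 for complex III, 881 ± 478 for complex IV and 3600 ± 231 for complex V. In the saline 1 month group the same sums were 1700 ± 59.5, 633 ± 48.6, 444 ± 32.0, 893 ± 66.3 and 4325 ± 318 (n = 5). The saline 24 h libraries were thus more uneven than those at 1 month: their complex IV sums, in the order of replicates 1, 2, 3, 5 and 6, were 1540, 1213, 555.6, 404.5 and 689.5 CPM, whereas the 1 month libraries ran from 818.7 to 963.8 CPM. The input means were lower for complexes I, III and IV, at 1059 ± 76.9, 301 ± 31.6 and 460 ± 86.7 CPM (n = 2). Replicate 5 at 24 h, however, lay between the inputs for complexes I and IV and, at 182 CPM, below both for complex III. Input RNA was at 521 ± 30.9 CPM for complex II and 3718 ± 63.0 CPM for complex V, within the range of the saline 24 h libraries. The saline 1 month libraries all lay above both inputs, at 564.2 to 681.4 CPM for complex II and 3954 to 4820 CPM for complex V. Together the genes took 0.588 to 0.995% of the counts in purified libraries, and 0.599 and 0.613% in the inputs.

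**Figure D1:**
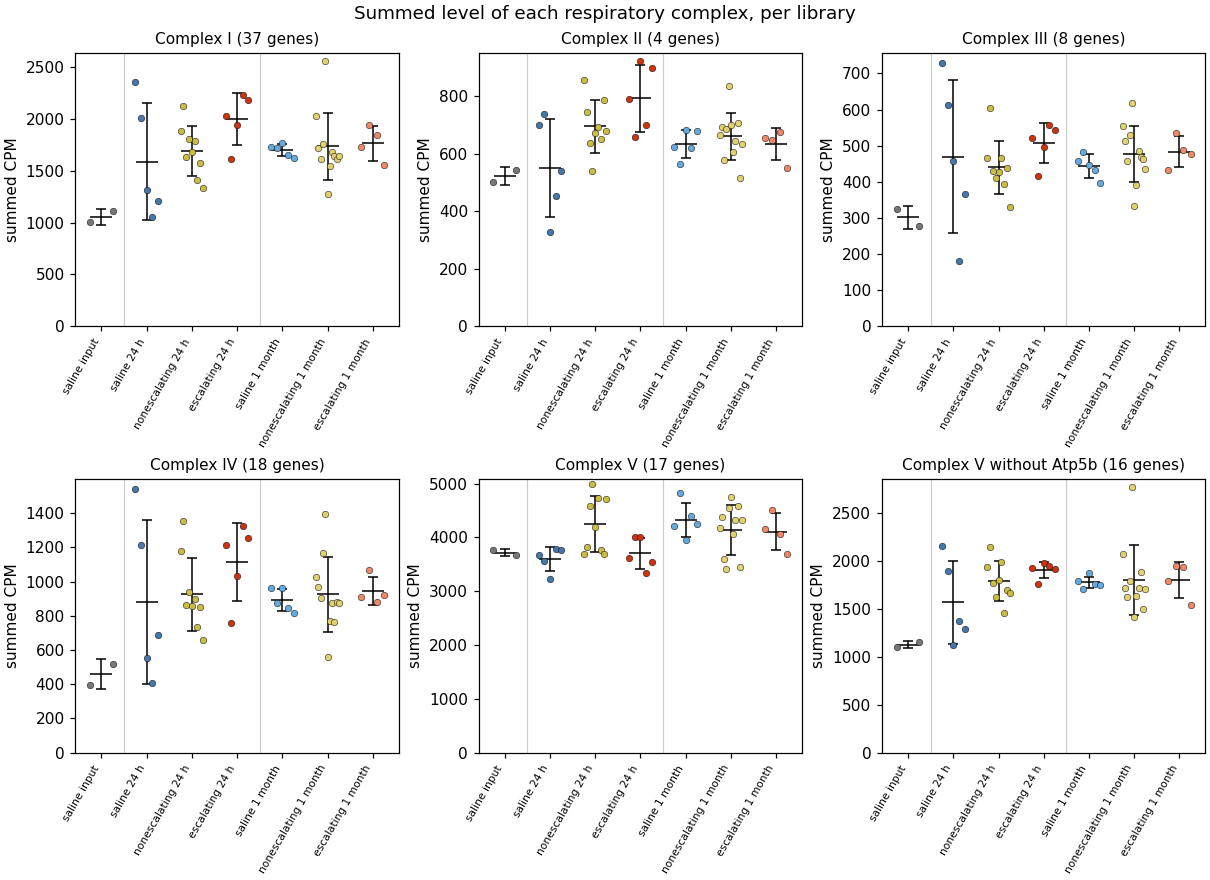
Summed CPM of the genes of each respiratory complex in every library (points), with the mean and SD of each group (bars), for the saline inputs and the 6 purified groups; the last panel leaves Atp5b out of complex V. The 5 saline 24 h libraries are spread from 1054 to 2363 CPM for complex I, while the 5 saline 1 month libraries lie between 1621 and 1770 CPM.

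Levels of single genes were compared per length, as CPM divided by the length in kb of the annotated mRNA, over all 39 purified libraries. Atp5b had the highest level of the 84 genes, 1191 ± 259 CPM per kb (SD, n = 39), followed by Atp5a1, the alpha subunit that alternates with beta in the catalytic head, at 324 ± 57.6 CPM per kb. Next came Cox8a and Cox6a1, small nuclear subunits of complex IV, at 294 ± 69.0 and 248 ± 68.7 CPM per kb. Within complex II, the flavoprotein gene Sdha (164 ± 29.4 CPM per kb) held 71.3% of the counts, and the membrane anchor gene Sdhc had 25.7 CPM per kb. In complex III the small subunit genes Uqcrh, for the hinge protein, and Uqcr10 reached 135 ± 41.8 and 130 ± 45.7 CPM per kb, above the core subunit genes Uqcrc2 (67.3) and Uqcrc1 (55.4). For complex I, Ndufs1, the large iron-sulfur subunit of the matrix arm, stood at 41.3 CPM per kb. Atp5c1, the rotating gamma subunit, ranked 12 of 84 with 146 ± 38.1 CPM per kb, and Ndufa1, a small X-linked accessory subunit of complex I, ranked 25 with 76.1 ± 34.0. Among the genes named with an SD, the range of 1 SD around the mean overlapped that of the next in order, apart from Atp5b.

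The genes that exist in tissue forms divided sharply. The general forms Cox4i1, Cox6a1, Cox6b1, Cox7a2 and Cox8a stood at 140, 248, 70.5, 81.0 and 294 CPM per kb. Of their counterparts, Cox4i2, the lung form, was at 1.47 CPM per kb, with counts in 21 of 39 purified libraries, and Cox6a2 and Cox7a1, the heart and skeletal muscle forms, were at 0.183 and 0.326. The third muscle form, Cox8b, had counts in 4 libraries. Cox6b2 and Cox7b2, forms known from testis, were at 0.458 and 0.346 CPM per kb. Cox8c, another testis form, had 0 counts in the 468824081 counts of all purified libraries, which allows a level of up to 0.0064 CPM if 3 counts are taken as the limit. Ndufa4l2, the paralog of Ndufa4 (163 ± 58.2), was at 0.766 CPM per kb. Cox7a2l, which helps join complexes III and IV, was at 40.1. ATP synthase has 3 genes for the same c subunit of its membrane ring, and Atp5g3 led them with 150 CPM per kb against 14.1 for Atp5g1 and 10.3 for Atp5g2. These last levels depend on the annotated mRNA length, which is 4715 bp for Atp5g1.

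Promoters of respiratory genes are known for binding sites of nuclear respiratory factor 1 (NRF1), of GABPA, also called NRF2, and of YY1. In the RefSeq promoter sequences of GRCm38.p6, which reach from 250 bases before to 50 bases after the annotated start, 67 of the 84 genes were matched, with 73 promoters. The NRF1 letters, GCGCA, any base and then GCGC, stood in 18 of these promoters (24.7%, against 4.59% of all 32817 promoters), the YY1 letters AAGATGGCG in 9 (12.3% against 1.4%) and the GABPA letters CCGGAAGT in 5 (6.85% against 3.89%), searched on both strands. At least 1 of these was found in 30 of the 73 promoters (41.1%, against 9.24%). Counted by gene, 9 of 14 genes of complex V, 12 of 32 of complex I, 3 of 5 of complex III, 2 of 3 of complex II and 2 of 13 of complex IV had a match. A match is a description of the letters in this window. The promoters of 3 genes that were higher in purified RNA and of Cox8a are printed 5′ to 3′ on the minus strand of the chromosome, which is the strand of each gene, because they show each motif once or more, with the match in capitals. That of Ndufc1, at chr3:51408906-51409205, holds the YY1 letters just after the start, those of Atp5k (chr5:108434350-108434649) and Atp5o (chr16:91931581-91931880) hold the NRF1 letters, in reverse complement in Atp5o, and that of Cox8a (chr19:7217567-7217866) holds the GABPA letters 2 times, also in reverse complement.
Ndufc1: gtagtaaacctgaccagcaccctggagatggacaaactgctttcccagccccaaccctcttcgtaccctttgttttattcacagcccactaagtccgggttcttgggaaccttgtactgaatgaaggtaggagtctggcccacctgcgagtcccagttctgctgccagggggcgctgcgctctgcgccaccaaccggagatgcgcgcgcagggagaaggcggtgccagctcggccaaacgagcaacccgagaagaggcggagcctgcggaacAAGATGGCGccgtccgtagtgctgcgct
Atp5k: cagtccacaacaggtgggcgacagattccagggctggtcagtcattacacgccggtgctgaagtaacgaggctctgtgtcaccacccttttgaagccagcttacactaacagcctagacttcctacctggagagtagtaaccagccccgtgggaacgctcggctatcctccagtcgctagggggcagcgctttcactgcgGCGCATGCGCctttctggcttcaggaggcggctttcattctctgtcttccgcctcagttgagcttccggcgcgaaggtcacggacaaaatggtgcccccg
Atp5o: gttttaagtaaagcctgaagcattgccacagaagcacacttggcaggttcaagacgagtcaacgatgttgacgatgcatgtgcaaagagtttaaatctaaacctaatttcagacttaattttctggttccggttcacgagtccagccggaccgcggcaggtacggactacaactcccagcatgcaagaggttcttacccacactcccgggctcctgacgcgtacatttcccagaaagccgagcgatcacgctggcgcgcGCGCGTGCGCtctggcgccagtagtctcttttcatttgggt
Cox8a: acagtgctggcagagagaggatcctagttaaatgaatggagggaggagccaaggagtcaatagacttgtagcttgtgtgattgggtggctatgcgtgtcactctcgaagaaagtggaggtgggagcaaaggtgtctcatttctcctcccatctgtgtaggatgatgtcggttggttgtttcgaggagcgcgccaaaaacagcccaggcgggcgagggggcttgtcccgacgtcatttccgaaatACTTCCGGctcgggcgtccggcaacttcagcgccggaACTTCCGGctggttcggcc

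The first comparison asked how the RNA bound to the tagged ribosomes of D1 neurons in saline mice differs from the RNA of the whole dorsal striatum. Of the 78 respiratory genes tested, 6 were higher in purified RNA and 0 lower, and the genes called belong to complexes I, III and V (edgeR quasi-likelihood test, Benjamini-Hochberg adjusted p under 0.05 over all genes). Over all 15305 genes tested, 4.65% were called, 1.84% higher and 2.81% lower. The 6 genes not tested, Cox6a2, Cox6b2, Cox7a1, Cox7b2, Cox8b and Cox8c, had too few counts. Of the 78 genes, 76 had a log2 fold change above 0, against 49.4% of all genes, and their median was 1.06 against -0.01. By complex the median log2 fold change was 1.08 for I, 0.57 for II, 1.13 for III, 1.34 for IV and 0.91 for V. At an unadjusted p under 0.05, 34 members were higher and 0 lower, where 18.3% of all genes passed. Each fold change here compares the mean of both saline groups with the 2 inputs. In bulk samples of this kind, fewer cells of a type and less RNA per cell cannot be told apart.

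**Figure D2:**
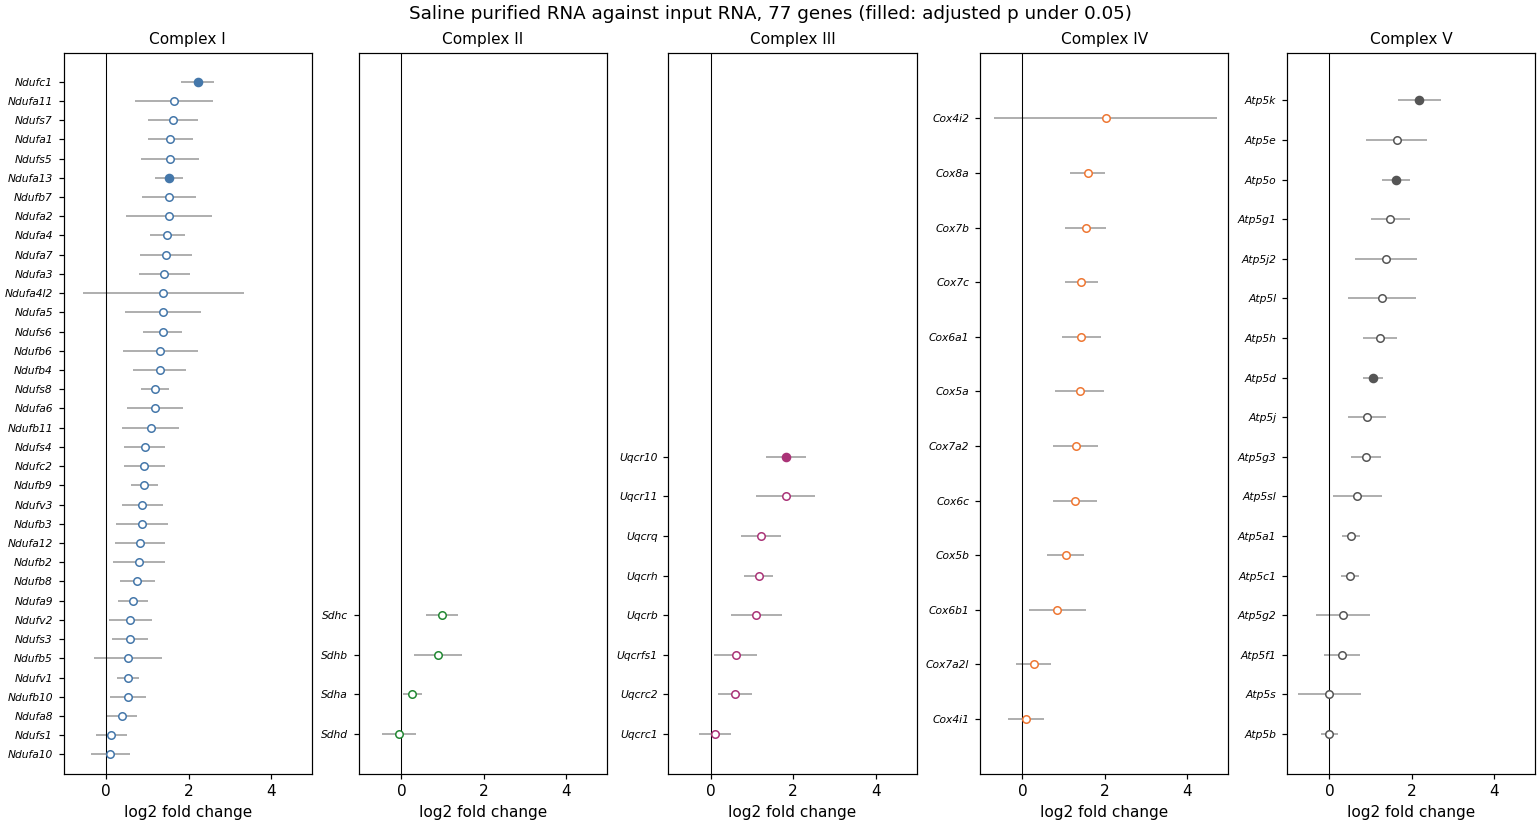
Log2 fold change of saline purified against input RNA for 77 of the 78 genes tested, by complex, with the standard error from the edgeR fit (lines); filled points are the 6 genes with an adjusted p under 0.05. Nearly all points lie right of 0, and the genes at the foot of each panel, such as Atp5b at -0.01 and Cox4i1 at 0.10, lie close to it.

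Within complex I, 2 of 37 genes passed, both coding for accessory subunits of the membrane arm. Ndufc1, at chr3:51404677-51408988, had 13.5 and 12.9 CPM in the inputs. Its purified libraries had 55.1, 47.8, 80.0, 29.9 and 83.2 CPM at 24 h and 60.5, 37.8, 51.2, 51.4 and 48.6 CPM at 1 month. Every purified library therefore exceeded both inputs, and the log2 fold change was 2.22 ± 0.40 (SE, n = 10 against 2, edgeR adjusted p = 0.00834). Ndufa13, also known as GRIM-19, at chr8:69894180-69902558, had 22.3 and 29.2 CPM in the inputs. It stood at 79.4, 91.1, 55.6, 44.1 and 40.3 CPM at 24 h and at 80.9, 73.0, 67.8, 66.8 and 56.6 CPM at 1 month. The groups did not overlap, and the log2 fold change was 1.53 ± 0.34 (adjusted p = 0.0208). Ndufa1, at chrX:37187588-37191163, had 9.74 and 14.7 CPM in the inputs, and 74.4, 40.1, 16.9, 15.2 and 20.9 CPM at 24 h. At 1 month it had 35.9, 26.4, 35.4, 25.2 and 29.8 CPM. Here too every purified library was above both inputs, but replicates 3 and 5 at 24 h were only just above, and with an adjusted p of 0.132 the log2 fold change, 1.56 ± 0.55, missed the threshold. Ndufs8, a core iron-sulfur subunit, had 1.19 (adjusted p = 0.0607), while Ndufs1, also a core subunit gene, had 0.13 ± 0.39 (adjusted p = 0.925).

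Complex II, the only complex with all subunits encoded in the nucleus, had 0 of 4 genes called. Sdha had 388.1 and 412.8 CPM in the inputs, and 519.0, 492.8, 216.1, 393.4 and 372.6 CPM in the 24 h libraries. At 1 month it had 429.1, 442.8, 465.4, 441.6 and 476.3 CPM. The 24 h values lay on both sides of the inputs and the 1 month values above them, with a log2 fold change of 0.26 ± 0.23 (adjusted p = 0.644). The anchor genes Sdhc and Sdhd had 0.99 ± 0.39 and -0.06 ± 0.42 (adjusted p = 0.185 and 0.976).

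In complex III, 1 of 8 genes passed, Uqcr10, a small subunit whose gene lies at chr11:4701973-4704342. Its inputs had 15.95 and 19.9 CPM. The 24 h libraries had 133.9, 82.4, 57.2, 29.5 and 33.1 CPM, and the 1 month libraries 49.3, 60.8, 44.5, 40.96 and 45.0 CPM. No purified library was as low as an input, and the log2 fold change was 1.83 ± 0.49 (adjusted p = 0.0461). This call was lost when any of 9 of the 12 libraries was left out, namely replicates 2 and 3 at 24 h, any 1 month library or either input, with adjusted p from 0.0526 to 0.433. The core subunit genes Uqcrc2 and Uqcrc1, whose products face the matrix, had 0.59 ± 0.42 and 0.10 ± 0.39 (adjusted p = 0.537 and 0.945).

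Complex IV had the highest median and 0 of 12 tested genes called, and 8 of the 12 were higher at an unadjusted p under 0.05. The lowest adjusted p was that of Cox8a, at chr19:7215153-7217616, whose GABPA letters are shown above. It had 43.8 and 69.8 CPM in the inputs, 235.6, 187.2, 68.6, 68.4 and 163.9 CPM at 24 h and 184.7, 119.8, 178.5, 161.9 and 130.7 CPM at 1 month. Replicates 3 and 5 at 24 h fell below the higher input, and the log2 fold change was 1.58 ± 0.43 (adjusted p = 0.0506). Cox7c, a small subunit, and Cox6a1 had 1.43 each (adjusted p = 0.057 and 0.112), and Ndufa4, counted under complex I by its symbol, had 1.48 (adjusted p = 0.0595). Of the genes with paralogs, Cox7a2 had 1.29 and Cox6b1 0.85, whereas Cox7a2l had 0.27 and Cox4i1 0.10 ± 0.44 (adjusted p = 0.223, 0.607, 0.823 and 0.955). The fold change of Cox4i2, 2.02 ± 2.70, rests on few counts (adjusted p = 0.787).

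Complex V gave 3 of the 6 calls, in its stalks and its membrane part. Atp5o, at chr16:91925214-91931687, encodes OSCP, the subunit that ties the catalytic head to the peripheral stalk. It had 25.9 and 30.8 CPM in the inputs, 129.7, 84.0, 50.8, 54.7 and 59.3 CPM at 24 h and 82.5, 88.8, 81.4, 77.1 and 65.1 CPM at 1 month. The groups did not overlap, and the log2 fold change was 1.62 ± 0.34 (adjusted p = 0.0163). Atp5d, at chr10:80138632-80145818, encodes the delta subunit of the central stalk. Its values were 89.2 and 100.4 CPM in the inputs, 153.1, 121.0, 126.6, 86.8 and 162.7 CPM at 24 h and 241.6, 281.3, 191.6, 237.6 and 204.7 CPM at 1 month. Replicate 5 at 24 h lay below both inputs and the other 9 purified libraries above them, with a log2 fold change of 1.05 ± 0.24 (adjusted p = 0.023). Atp5k, at chr5:108433244-108434448, encodes subunit e, which sits in the membrane part of the enzyme. It had 6.38 and 10.9 CPM in the inputs, 65.7, 39.5, 36.2, 43.0 and 13.8 CPM at 24 h and 31.6, 41.2, 27.8, 23.6 and 24.6 CPM at 1 month. All purified libraries exceeded the inputs, and the log2 fold change was 2.18 ± 0.52 (adjusted p = 0.0278). Without replicate 1 at 1 month this call was lost, at 2.16 ± 0.55 (adjusted p = 0.0522).

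Atp5b and Atp5a1 of the catalytic head, and Atp5c1, the rotating gamma subunit, were closer to the input level. Atp5b, at chr10:128083273-128090391, had 2657 and 2520 CPM in the inputs. Its purified libraries had 1518, 1655, 2099, 2416 and 2465 CPM at 24 h and 2423, 3110, 2082, 2624 and 2492 CPM at 1 month. All 24 h libraries were below both inputs and those at 1 month lay around them, and the log2 fold change was -0.01 ± 0.21 (adjusted p = 0.994). Atp5c1, at chr2:10056016-10080510, had 128.4 and 116.4 CPM in the inputs, 177.4, 164.2, 156.0, 95.3 and 122.1 CPM at 24 h and 152.7, 143.3, 180.5, 164.8 and 183.0 CPM at 1 month. Replicate 5 at 24 h lay below both inputs, replicate 6 between them and the other libraries above, and the log2 fold change was 0.50 ± 0.22 (adjusted p = 0.241). Atp5a1 had 0.51 ± 0.22 (adjusted p = 0.224), and the c ring genes Atp5g1, Atp5g2 and Atp5g3 had 1.48, 0.33 and 0.88 (adjusted p = 0.0921, 0.877 and 0.210).

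**Figure D3:**
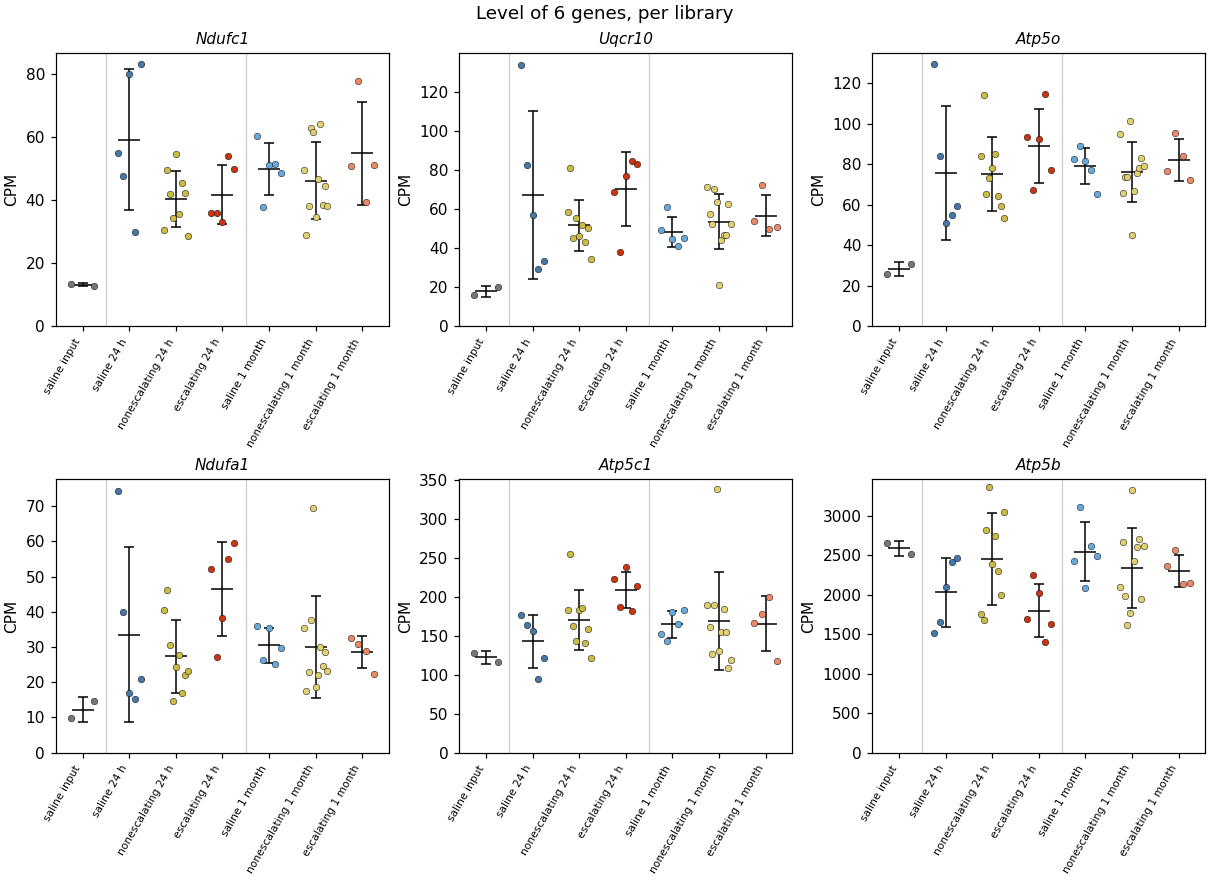
CPM of 3 genes that were higher in saline purified than in input RNA (Ndufc1, Uqcr10, Atp5o) and of Ndufa1, Atp5c1 and Atp5b in every library (points), with the mean and SD of each group (bars). For Ndufc1, the inputs lie at 12.9 and 13.5 CPM and the purified libraries at 28.5 CPM or more, whereas for Atp5b the inputs at 2520 and 2657 CPM lie within the range of the purified libraries.

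A count of genes whose purified libraries all lay above both inputs gave 9 of 78: Ndufa1, Ndufa4, Ndufa13, Ndufc1, Ndufs8, Uqcr10, Uqcrh, Atp5k and Atp5o. Over all genes the share was 3.74%, and 0 members lay wholly below the inputs, against 14% of all genes. The number of calls turned on a few libraries. Without replicate 5 of the saline 24 h group, the library that stood apart, 34 of 78 genes were called higher. In that fit 15% of all genes were called in either direction, against 4.65% with all libraries. Without either input 0 members were called. The share of all genes called in those fits is not given here, so this loss cannot be read as particular to the respiratory genes. When only the saline 1 month libraries were set against the inputs, 52 of 77 genes were higher and 0 lower, where 19.4% of all genes were called. These were 25 of 36 genes of complex I, 2 of 4 of complex II, 5 of 8 of complex III, 9 of 12 of complex IV and 11 of 17 of complex V. In that comparison Ndufc1 had a log2 fold change of 2.10 ± 0.25 and Atp5g1 of 1.58 ± 0.19 (edgeR adjusted p = 0.000399 each), Ndufa1 had 1.51 ± 0.28 (adjusted p = 0.00374) and Atp5c1 0.61 ± 0.16 (adjusted p = 0.0207). Atp5b, at 0.15 ± 0.16, did not pass there either (adjusted p = 0.551), nor did Cox4i1 (0.41, adjusted p = 0.137) and Sdhd (0.31, adjusted p = 0.315). The saline 24 h libraries alone gave 0 of 76 calls, where 0.0823% of all genes were called, with a median of 1.04. DESeq2 called 16 of 78 genes on all saline libraries, where it called 6.13% of all genes. Beside these changes stand those of the endothelial genes, with a median log2 fold change of 3.57, and the summed levels given above. Their part in the result was not tested.

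Most respiratory mRNAs are short, with a median annotated length of 863 bp (371 to 4715 bp) against 3142 bp for the other protein-coding genes tested, and the fold change over input went with length. Among the 18 members of up to 600 bp the median log2 fold change was 1.45, and 18 of 18 were above 0. The 29 members over 600 and up to 1000 bp had a median of 1.19, the 23 over 1000 and up to 2000 bp had 0.59, and the 8 longer ones also had 0.59. The classes depend on the annotated lengths. The longest class includes Ndufb2 (4371 bp) and Atp5g1 (4715 bp), with log2 fold changes of 0.79 and 1.48. Other protein-coding genes showed a similar order at a lower level, with medians of 0.84, 0.49, 0.17 and 0.00 in the same classes. In each class the median of the respiratory genes was thus above that of the other genes. Spearman's rho between length and log2 fold change was -0.614 across the 78 members and -0.110 across 13297 other genes, as a description, since all points come from the same 12 libraries. The libraries themselves differed in this respect. The mean log2 CPM of 46 short members, up to 1000 bp, minus that of 31 longer ones was -1.68 and -1.48 in the inputs, between -1.45 and -0.60 at 24 h, and between -1.158 and -1.003 at 1 month. The same difference for other genes was -1.39 and -1.18 in the inputs, -1.466 to -0.452 in the saline 24 h libraries and -0.88 to -0.64 in the saline 1 month libraries. At 24 h, replicate 5 was thus below both inputs in this measure and replicate 3, at -1.241, between them. The part of mRNA length in the fold changes was not tested.

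**Figure D4:**
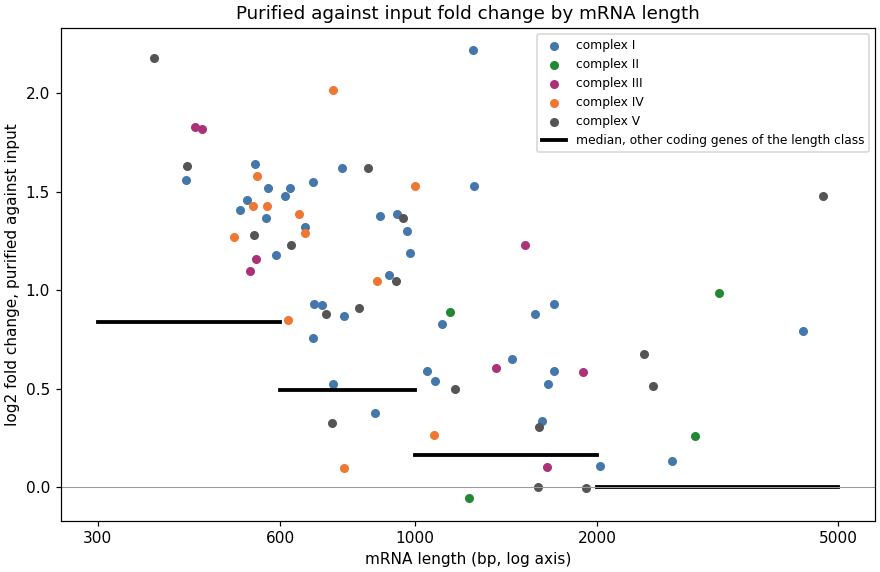
Log2 fold change of saline purified against input RNA for each respiratory gene tested (points, by complex) against its annotated mRNA length in bp on a log axis; black lines are the medians of other protein-coding genes in 4 length classes. The genes of up to 600 bp have a median of 1.45, above the line for other genes of that class at 0.84.

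Across the 39 purified libraries, with the mean of each group removed, most of the respiratory genes varied together. Pearson's r of a gene's log2 CPM with the mean profile of 77 members, which includes the gene itself, had a median of 0.766. By complex the median r was 0.778 for 36 genes of I, 0.568 for 4 of II, 0.777 for 8 of III, 0.841 for 12 of IV and 0.635 for 17 of V, while over all genes of mean CPM 20 or more it was 0.088. Atp5j2, subunit f of ATP synthase, followed the profile most closely (r = 0.957), and then Ndufa6, an accessory subunit of complex I (0.938), and Cox6b1 (0.922). Atp5b went against it (r = -0.656), as did Atp5sl (-0.409), Cox4i2 (-0.387) and Ndufs1 (-0.275). The 5 genes outside the rule whose profile was most like it, over 6123 genes and 39 libraries, were Atpif1, the inhibitor of ATP synthase (r = 0.923), the nucleoside diphosphate kinase gene Nme2 (0.892) and the ribosomal protein genes Rpl30 (0.888), Rps13 (0.887) and Rpl37a (0.881). Cytoplasmic ribosomal protein genes had a median r of 0.530 and mitochondrial ones of 0.501, against 0.188 for the citric acid cycle and 0.293 for glycolysis, each over the genes of mean CPM 20 or more. These correlations are descriptions, since the genes share libraries and depth. The lists were not matched for mRNA length, and the libraries differed in the balance of short and long mRNAs, as given above. The part of length in these correlations was not tested.

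The next comparisons asked whether the respiratory genes of D1 neurons differed after cocaine self-administration, at 24 h and at 1 month. The comparisons at 24 h, which share saline or nonescalating libraries, called 0 of the 76 respiratory genes tested (edgeR). Escalating against saline gave 0 of 76 calls, where 0% of all genes were called, and DESeq2 also called 0 members (0.35% of all genes). At an unadjusted p under 0.05, 5 members were higher and 2 lower, where 10.7% of all genes passed. The median log2 fold change was 0.25 against -0.04 over all genes, and 65 of 76 were above 0, against 47% of all genes. By complex it was 0.31 for I, 0.50 for II, 0.13 for III, 0.24 for IV and 0.18 for V. This median depended on the saline libraries, with 0.11 and 50 of 76 genes above 0 without replicate 5, 0.16 without replicate 3 or 6, 0.41 without replicate 2 and 0.52 without replicate 1. Other genes stood apart in the same comparison: cytoplasmic ribosomal protein genes had a median of 0.34, with 66 of 80 above 0, and endothelial genes -1.96, with 0 of 8 above 0. The summed endothelial level was 30.5 to 392 CPM in the escalating libraries against 29.3 to 1959 CPM in the saline ones. The part of these in the result was not tested.

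Single genes showed how wide the saline group was. Atp5c1 had 222.8, 187.9, 238.6, 182.7 and 214.1 CPM in the escalating libraries. It was the only member whose escalating libraries all lay above all saline libraries, where 1.2% of all genes did so, and 0 members lay wholly below, against 0.372%. Its log2 fold change was 0.48 ± 0.19 (edgeR adjusted p = 0.396). Sdha had 570.6, 474.5, 683.0, 501.3 and 652.9 CPM after escalation, overlapping the 2 highest saline libraries, with 0.46 ± 0.18 (adjusted p = 0.400). Atp5sl had 15.4, 17.5, 26.5, 9.69 and 23.9 CPM after escalation and 10.8, 31.9, 28.7, 96.4 and 25.5 CPM in saline, where replicate 5 was the highest. Its log2 fold change was -1.17 ± 0.43 (adjusted p = 0.375). Ndufa1 had 52.3, 27.1, 38.3, 55.0 and 59.5 CPM after escalation, all within the saline range of 15.2 to 74.4 CPM, and a log2 fold change of 0.44 ± 0.38 (adjusted p = 0.728).

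The nonescalating group did not show the same median. Against saline at 24 h it was 0.00, with 38 of 76 members above 0 against 48.9% of all genes, and 0 were called, where 0% of all genes were. DESeq2 called 0 members and 0.871% of all genes. At an unadjusted p under 0.05, 1 member was higher and 3 lower, against 11.9% of all genes. The sets differed: the first alone gave a median of 0.13, with 57 of 76 above 0, and the second -0.30, with 19 of 77 above 0, and each alone gave 0 calls. Sdhd had 45.5 to 85.7 CPM (median 57.8) in the nonescalating libraries and 32.8, 50.3, 34.6, 8.53 and 31.7 CPM in saline, where only replicate 2 reached the nonescalating range. Its log2 fold change was 0.80 ± 0.28 (edgeR adjusted p = 0.262). Ndufc1 had 28.5 to 54.7 CPM (median 41.9) in the nonescalating libraries, overlapping 2 of the 5 saline ones, with -0.63 ± 0.23 (adjusted p = 0.279), and Atp5sl had -0.99 ± 0.37 (adjusted p = 0.288). Ndufa1 and Atp5c1 stood at -0.35 ± 0.34 and 0.18 ± 0.17 (adjusted p = 0.729 and 0.721). Both cocaine groups together gave a median of 0.12, with 57 of 76 above 0 against 48.4%, and 0 members called by edgeR, where 0.0447% of all genes were, and 0 by DESeq2 (1.27%). Here 6 members were higher and 2 lower at an unadjusted p under 0.05, against 13.7% of all genes. Atp5sl had -1.08 ± 0.34, Sdhd 0.77 ± 0.27 and Ndufc1 -0.60 ± 0.21 (adjusted p = 0.162, 0.204 and 0.217). In a fit of all 39 purified libraries Atp5sl was called lower for both cocaine groups together, at -1.06 ± 0.27 (edgeR adjusted p = 0.0229), with the 96.4 CPM of saline replicate 5 among its values.

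Set directly against the nonescalating group at 24 h, the escalating group had a median of 0.28, with 64 of 76 above 0 against 47.9%. Again 0 members were called by edgeR, where 0% of all genes were, and 0 by DESeq2, and 2 were higher and 2 lower at an unadjusted p under 0.05, against 4% of all genes. The lowest p-values were those of Atp5d (-0.61 ± 0.23), Atp5b (-0.44 ± 0.17) and Ndufa1 (0.79 ± 0.33), each with an adjusted p of 0.999. Atp5b had 1690, 2246, 2024, 1400 and 1627 CPM after escalation and 1676 to 3366 CPM (median 2385) in the nonescalating group, so the groups overlapped. With the first nonescalating set alone the median was 0.15, and with the second 0.54.

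**Figure D5:**
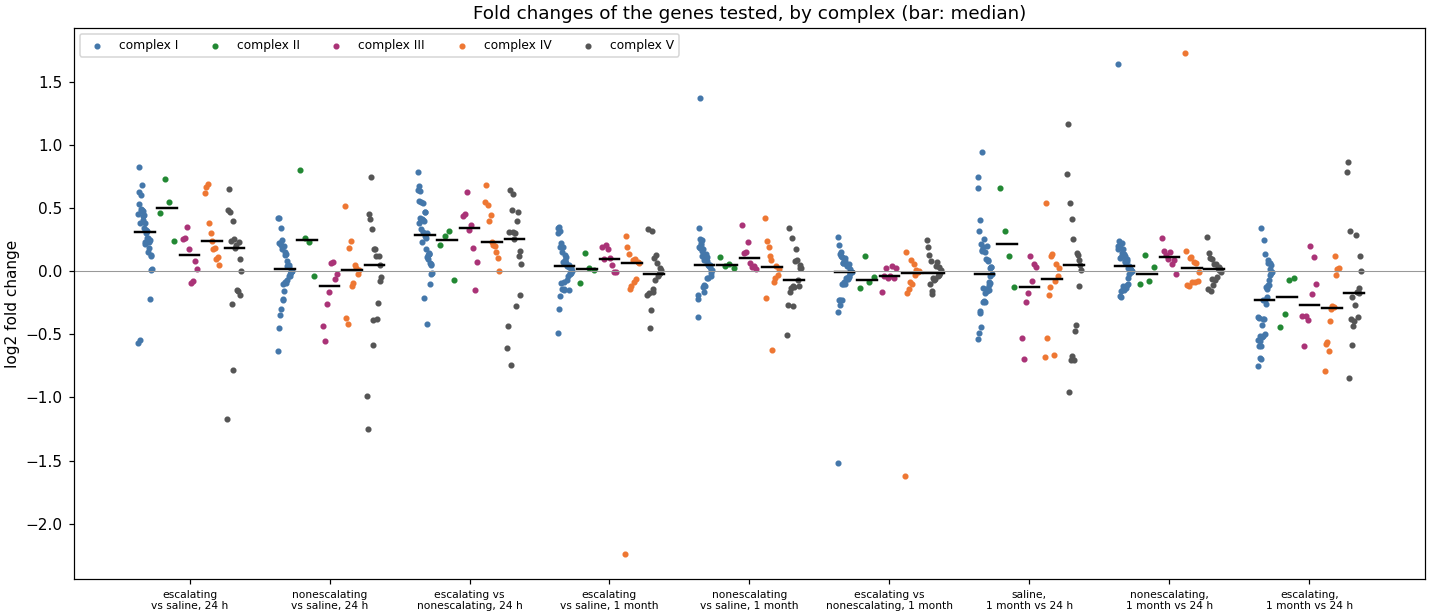
Log2 fold change of each respiratory gene tested (points, by complex) in 6 comparisons of cocaine and saline groups and in 3 comparisons of 1 month with 24 h; black bars are the medians of each complex. The medians of escalating against saline at 24 h lie between 0.13 and 0.50, and those of the same comparison at 1 month lie near 0.

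After approximately 1 month the groups were closer together. Escalating against saline gave a median of 0.03, with 46 of 78 above 0 (45.1% of all genes), and nonescalating against saline 0.05, with 53 of 78 above 0 (51.3%). In each, 0 members were called by edgeR, where 0% of all genes were, and 0 by DESeq2. At an unadjusted p under 0.05, 0 members passed in the first (1.29% of all genes) and 1, which was lower, in the second (3.6%). Both cocaine groups together had a median of 0.04, and escalating against nonescalating -0.01, also with 0 members called by both tools, where 0% of all genes were called by edgeR. At an unadjusted p under 0.05, 0 members passed in either, against 2.19% and 1.22% of all genes. The first nonescalating set alone had a median of 0.16 against saline and the second -0.06. The members with the lowest p were Ndufa7, an accessory subunit of complex I (0.30 ± 0.20), Ndufa8 (0.34 ± 0.23) and Ndufb6 (-0.49 ± 0.35) after escalation, each with an adjusted p of 1. In the nonescalating group they were Ndufb8 (-0.36 ± 0.18), Atp5g2 (-0.50 ± 0.26) and Cox7a2l (0.42 ± 0.23), each with an adjusted p of 0.999. Ndufs6, an accessory subunit of the matrix arm, had 31.2, 41.2, 29.0 and 29.8 CPM after escalation and 25.8, 21.6, 23.4, 27.6 and 28.8 CPM in saline. It and Atp5j2 were the members whose escalating libraries all lay above all saline libraries, where 0.842% of all genes did so. Ndufa1 had 35.9, 26.4, 35.4, 25.2 and 29.8 CPM in saline, 17.6 to 69.6 CPM (median 24.5) in the nonescalating and 32.4, 31.0, 28.8 and 22.2 CPM in the escalating group, so all 3 groups overlapped. Atp5c1 also overlapped, with 109.0 to 339.2 CPM (median 154.9) in the nonescalating and 166.2, 178.8, 200.6 and 117.5 CPM in the escalating libraries.

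Between 24 h and 1 month, the purified groups were compared in a fit of all 39 libraries. Among saline libraries the median log2 fold change of 1 month against 24 h was -0.00, with 39 of 78 above 0. There were 0 members called by edgeR, where 0.843% of all genes were, 7 were higher and 3 lower at an unadjusted p under 0.05 (16.4% of all genes), and DESeq2 called 1 (4.13%). That gene was Ndufs8, with 31.7, 47.5, 34.1, 22.1 and 24.8 CPM at 24 h and 65.0, 64.2, 59.9, 42.7 and 50.3 CPM at 1 month. Replicate 2 at 24 h was the only overlap, and the log2 fold change was 0.75 ± 0.22 in edgeR (adjusted p = 0.0839) and 0.72 in DESeq2 (adjusted p = 0.0325). Without that library edgeR called 2 members, Ndufs8 at 0.94 ± 0.23 and Atp5g2 at 1.66 ± 0.45 (adjusted p = 0.0264 and 0.0426). The library left out was the only overlap for Atp5g2 as well, so these calls add no separate support. The share of all genes called in that fit is not given here. Atp5d, whose values are given above, was the only member with all 1 month libraries above all 24 h libraries, where 2.26% of all genes did so, and had 0.77 ± 0.25 (adjusted p = 0.102). Atp5g2 rested on low counts, with 1.93, 9.75, 1.91, 4.08 and 5.04 CPM at 24 h and 12.2, 14.4, 9.34, 9.56 and 8.34 CPM at 1 month, and had 1.17 ± 0.44 (adjusted p = 0.161).

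In the nonescalating group the median over time was 0.04, with 0 members called by edgeR (0% of all genes) or DESeq2 and 0 at an unadjusted p under 0.05 (2.76%). In the escalating group it was -0.23, with 19 of 78 above 0 and again 0 called by edgeR (0%) or DESeq2. There 1 was higher and 3 lower at an unadjusted p under 0.05, against 5.5% of all genes. Atp5d had 90.0, 174.5, 112.3, 104.7 and 131.6 CPM at 24 h and 208.0, 234.6, 206.5 and 219.0 CPM at 1 month, with every later library above every earlier one, and 0.79 ± 0.26 (adjusted p = 0.899). Atp5g2 showed the same separation, where 3.25% of all genes did, and Ndufs4, an accessory subunit of the matrix arm, the opposite, with 138.1, 93.9, 106.6, 107.8 and 111.9 CPM at 24 h and 80.8, 88.7, 89.8 and 56.6 CPM at 1 month, where 1.61% of all genes did. Sdha had -0.44 ± 0.16 and Cox6c -0.79 ± 0.37 (adjusted p = 0.899 and 0.900). Whether the cocaine effect itself differed between the times was tested as a difference of differences, and 0 members were called by edgeR or DESeq2 for all cocaine (0.0132% of all genes by edgeR), for the escalating (0%) and for the nonescalating group (0.00658%). The medians were -0.11, -0.21 and 0.04. At an unadjusted p under 0.05, 2 members were higher and 4 lower for all cocaine, 0 and 1 for escalating and 2 and 5 for nonescalating, against 10.8%, 7.42% and 11.8% of all genes. Ndufb8, an accessory subunit of complex I, had -0.78 ± 0.32 for all cocaine (adjusted p = 0.346), Sdha -0.56 ± 0.22 for the escalating group (adjusted p = 0.571) and Atp5d -0.72 ± 0.30 for the nonescalating group (adjusted p = 0.328). All of these share the saline libraries.

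Neighbouring pathways were followed in saline purified against input RNA, where 1.84% of all genes were called higher and 2.81% lower. The median log2 fold change over all genes was -0.01. Of the 5 oxidative phosphorylation genes that the symbol rule leaves out, all were above 0, with a median log2 fold change of 0.99, and 0 were called by edgeR. Atpif1 had 1.59 ± 0.50 (adjusted p = 0.0852), Usmg5, a small ATP synthase subunit, 2.12 (0.259), Ndufab1, the acyl carrier protein of complex I, 0.99 (0.255), and the cytochrome genes Cyc1 and Cycs 0.42 and 0.27 (0.507 and 0.822). Of 43 assembly factor genes tested, 1 was higher and 0 lower, with a median of 0.24. It was Cox17, a copper chaperone for complex IV (1.55 ± 0.42, adjusted p = 0.0478). Of 17 citric acid cycle genes, 2 were higher, with a median of 0.41, among them the malate dehydrogenase gene Mdh2 (1.53 ± 0.39, adjusted p = 0.0356). Among 16 glycolysis genes 3 were higher, Gapdh (1.17), Aldoa (0.67) and Eno2 (0.76), and 1 was lower, Aldoc, an aldolase known from astrocytes (-2.95 ± 0.56, adjusted p = 0.00999). The astrocyte markers had a median of -2.84 in the same comparison. All 12 mitochondrial carrier genes were above 0, with a median of 0.43, and 1 was called, the glutamate carrier Slc25a22 (1.31 ± 0.25, adjusted p = 0.0102). Mitochondrial ribosomal protein genes had 1 of 75 higher with a median of 0.66, and cytoplasmic ones 2 of 80 higher with a median of 0.53. These counts, and that of the assembly factors, lie near the share of all genes called higher. The regulators of mitochondrial genes had a median of -0.13 and 0 called by edgeR, and the lowest p was that of Yy1 (-0.83, adjusted p = 0.204), whose product binds the letters shown in the Ndufc1 promoter.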

How the data were processed

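Gene counts, 1 table for each library, are the raw read counts the authors deposited. STAR 2.0.0e, HTSeq and the genome build mm10 are named in the submitters' processing notes, and which annotation and strand setting served the counting is not given in the sources used here. Respiratory genes have many processed pseudogenes, so reads that fit both may be missing from the counts: reads that were not unique were 7.16 to 8.79% in the inputs and 9.97 to 17.1% in purified libraries. Summary lines of the counting program were left out, of which reads in no gene were 15.9 to 42.3%. Depth ranged from 5394332 to 23925655 counts. CPM were computed per 1e6 counts, with no length correction unless stated.

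Counts were tested with edgeR 4.0.16 in R 4.3.3 (TMM, filterByExpr, quasi-likelihood F test, Benjamini-Hochberg adjusted p under 0.05 over all genes tested), and the standard error is the log2 fold change divided by the root of F. Each time was fitted with its 3 groups, time and differences of differences with all 6, and inputs with the saline groups. DESeq2 1.42.0, other scalings and filters, a replicate block, each set of nonescalating replicate numbers alone, saline groups alone and fits without single libraries were alternatives. Single libraries were left out of the saline, escalating and input groups, and no nonescalating library was left out on its own. In simulated data with 100 genes changed 2-fold and 100 changed 4-fold, 6% and 35% were recovered for purified against input (15305 genes), 23% and 63% for escalating against saline at 24 h (13437 genes), and 47% and 88% at 1 month (14488 genes). For saline at 1 month against 24 h they were 38% and 84% (15190 genes). Genes to change were drawn only above a minimum mean CPM. Counts were drawn apart for each gene, without shifts that genes of a library share. No 2 libraries of a group agreed within sampling noise over 128 pairs (lowest chi-square per degree of freedom 8.89).

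The genes and lists were chosen with earlier results of these data known. Genes named are those called, up to 10 per direction, or the 3 with the lowest p where fewer than 3 were called; Ndufa1 and Atp5c1; the 2 highest of each complex by mean CPM; the tissue forms; genes outside the rule; and up to 3 genes of each other list. Other genes were picked after their values were seen: those of the counts of groups that did not overlap, the next highest levels, Cox7c, the examples of the saline 1 month libraries alone, and the genes of extreme correlation. Some genes that meet the rule are left out of the text. Positions and mRNA lengths were taken from GENCODE M21 (GRCm38, the same build as mm10), and promoters from RefSeq on GRCm38.p6.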

Additional observations from a re-analysis of the deposited data

Results flagged for a closer look

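In 17 of 215 groups of values, 1 library lay far from the others of its group, judged by its gap to the nearest library relative to the range of the group. Chance alone flags about 1 in 20 groups. Replicate 5 of the saline 24 h group, the library of lowest depth, gave 3 of these: 96.4 CPM for Atp5sl, 12.8 CPM for Cox4i2 and 226.5 CPM for Ndufs1. Replicate 2 of the first nonescalating set at 24 h also gave 3, namely 255 CPM for Atp5c1, 89.98 CPM for Cox7a2 and a summed level of 603.9 CPM for complex III. Other values at 24 h were 85.7 CPM for Sdhd in nonescalating replicate 4 of the first set, 90.6 CPM for Cox6a1 in escalating replicate 2 and 72.1 CPM for Ndufa8 in escalating replicate 4. At 1 month, escalating replicate 2 had 34.7 CPM for Atp5sl and 32.9 CPM for Ndufa7. The remaining values were low: Cox4i2 had 8.91 CPM in saline replicate 5 and 1.36 CPM in escalating replicate 1 at 1 month, and Ndufa4l2 had 0.956 CPM in saline replicate 3, 2.65 CPM in nonescalating replicate 1 of the second set and 1.67 CPM in escalating replicate 4 at 24 h, and 2.05 CPM in saline replicate 5 at 1 month. No flagged value came from the nonescalating group at 1 month or from the inputs, and these may not have been judged. In that nonescalating group, replicate 5 of the first set had the highest sums. It had 2561 CPM for complex I and 9952 CPM for all members, where the next highest library had 2032 and 8453 CPM.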

How the results depend on the processing

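The number of respiratory genes called in saline purified against input RNA was 6, and it was 10 with no filter on low counts, 16 with DESeq2, 0 with the saline 24 h libraries alone and 52 with the saline 1 month libraries alone. Leaving out 1 library gave 0 to 34, with 0 without either input and 34 without saline 24 h replicate 5. The share of all genes called was 4.65% in the main fit and 15% without that replicate. With the saline 1 month libraries alone it was 19.4%, with the saline 24 h libraries alone 0.0823% and with DESeq2 6.13%. For the fits with no filter, with a replicate block or without any other single library, that share is not given here. A replicate block gave 6, but whether the numbers pair the libraries is not stated. Over 42 pairs of the same number, deviations from the group means had a median r of -0.028 (-0.554 to 0.440), and 10 were over 0.1. Over 192 other pairs the median r was 0.002, and 45 were over 0.1. At 24 h, all cocaine against saline gave 1 call in place of 0 when all 39 purified libraries were in 1 fit, Atp5sl at -1.06 ± 0.27 (edgeR adjusted p = 0.0229). Among saline libraries over time, DESeq2 gave 1 call, and leaving out 1 library gave 0 to 2. The 2 calls came without saline 24 h replicate 2, the only overlap between the times for both genes. In the other 12 comparisons the count was 0 under each alternative run.

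Upper quartile scaling and library totals alone moved the median of all genes in purified against input RNA from -0.01 to -0.14 and -0.19, and that of the respiratory genes from 1.06 to 0.95 and 0.89. Signs changed for genes near 0: Ndufs1 to -0.0070 with upper quartile scaling, -0.0504 with library totals and -0.0661 with the replicate block, Uqcrc1 to -0.0092 and -0.0658 with the first 2 of these, and Atp5b to 0.15 with the saline 1 month libraries alone. Without single libraries, Atp5b ranged from -0.0747 to 0.0618, Ndufs1 from -0.12 to 0.28 and Uqcrc1 from -0.23 to 0.54, all in purified against input RNA. In nonescalating against saline at 24 h, Ndufa1 ranged from -0.51 to 0.13 without single saline or escalating libraries. Atp5c1 was at -0.10 there with the second set of nonescalating libraries alone. The cause was not tested. With 2 inputs and, at 24 h, 5 uneven saline libraries, 2-fold changes were mostly not recovered in the simulated data.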
